A study of Drosophila melanogaster with 22 samples.

Results

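The genes described here are 106 antisense RNA genes of Drosophila melanogaster, long non-coding RNA genes whose annotation places them against a gene on the other DNA strand. They are the genes whose FlyBase symbol begins with asRNA: and whose nanopore read counts, summed over 17 libraries, came to at least 15, with CR42738 left out. They were 106 of 502 such genes in the annotation, and 106 of the 13853 genes with a nanopore count; another 257 antisense RNA genes had a count but stayed under 15. Just inside the limit, at 15 counts, were CR43833, CR44124, CR44375, CR44969, CR45479, CR45999, CR46005 and CR46105, and just outside it, at 14 counts, were CR31144, CR44512, CR45009, CR45140 and CR46255. The genes were chosen by these summed counts, so their level and detection are given as a description. The prefix asRNA: is dropped from the symbols below.

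Natural antisense transcripts are RNAs made from the strand opposite another gene, so that part of each RNA is complementary to the other. Where both RNAs of such a pair are present in a cell they can form double strands, which in flies Dcr-2 cuts into endogenous small interfering RNAs that are loaded into AGO2. Other antisense RNAs are known to act through their transcription alone, at the promoter of the gene they face, and for most annotated antisense genes no role is known. Larval blood of the fly holds plasmatocytes, which engulf particles, crystal cells, the source of the enzymes of melanization, and, after a parasitoid wasp has laid an egg in the larva, lamellocytes, large flat cells that encapsulate the egg. The lymph gland is the larval organ in which blood cells mature from progenitors.

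Poly(A) RNA came from larvae of the strain Oregon R, either infested by a wasp or kept under normal conditions, at 120 h or 96 h after egg laying. Infested larvae of 120 h were taken 48 h after infestation and those of 96 h were taken 24 h after it. Circulating hemocytes (blood) were set free by vortexing 100 to 150 larvae per condition with glass beads and then opening 10 larvae per replicate, lymph glands were dissected separately, and RNA was extracted with TRIzol. The nanopore cDNA libraries were 3 of blood from infested larvae and 2 of blood from normal larvae at 120 h, 3 and 2 of the same at 96 h, 3 of lymph glands from infested and 3 from normal larvae at 96 h, and 1 of lymph glands from normal larvae at 120 h. The last was made with the kit SQK-PCS109 and the other 16 with SQK-PCB109, so tests used those 16, and the 120 h lymph gland stands beside them as 1 value. Another 5 libraries, 1 per condition, were sequenced on Illumina from a stranded kit, and the labels credit the lymph gland short reads to an earlier dataset. Each library pools many larvae, and the labels do not say whether replicates came from separate cultures, so p-values measure the spread between these libraries.

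Levels are given as CPM, counts scaled to the same library total. Counts assigned to genes ran from 356632 to 2079764 in the 16 libraries and came to 6223590 in the 120 h lymph gland, so that 3 counts, the most that a count of 0 allows, stood for 1.44 to 8.41 CPM in the 16 and for 0.482 CPM in the last. The summed CPM of 8 plasmatocyte markers lay between 2486 and 7237 in blood of every group and between 868 and 2429 in lymph glands. Summed progenitor markers lay between 979 and 3196 CPM in lymph glands of 96 h and between 199 and 335 CPM in blood. Both tissues thus held the markers of their labels; in blood the progenitor markers Antp and kn were at 0 in some groups. Midgut markers, which neither tissue should hold, came to between 2686 and 3743 CPM in blood of infested larvae at 96 h and to between 136 and 2271 CPM in lymph glands of infested larvae.

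The 106 antisense genes were spread over all chromosome arms, with 23 on 3L, 23 on 3R, 21 on 2R, 16 on X, 15 on 2L and 8 on chromosome 4. Chromosome 4 held 7.55% of them, against 1.99% of the annotated antisense genes and 0.855% of all genes with at least 15 counts; 8 of the 10 antisense genes annotated there passed the limit. Every one of the 106 faced a protein-coding gene, taken here as the gene on the other strand with the largest overlap of exons. In 47 pairs the genes were head to head, with overlapping 5′ ends, and in 16 they were tail to tail. In 32 the antisense gene lay inside the gene it faced, and in 11 it contained that gene. The exons of the antisense gene overlapped those of the facing gene over 4.34 to 95.9% of their length, with a median of 61.8%, and 87 of the 106 reached its coding sequence. Their exonic length ran from 291 to 6677 bases with a median of 877.5, and 50 of the 106 had unspliced annotated transcripts only.

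Most of these genes were scarce. Their summed counts ran from 15 to 4444 with a median of 36.5, and 37 of them had fewer than 30. A gene had a count in 4 to 17 libraries, with a median of 12.5, and 20 genes had one in all 17. Averaged over the 16 libraries of the shared kit, levels ran from 0.265 to 164 CPM with a median of 1.59 CPM, and 11 genes reached 10 CPM. A single gene, CR43957, made up 32.7% of the 13583 counts of all 106.

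**Figure D1:**
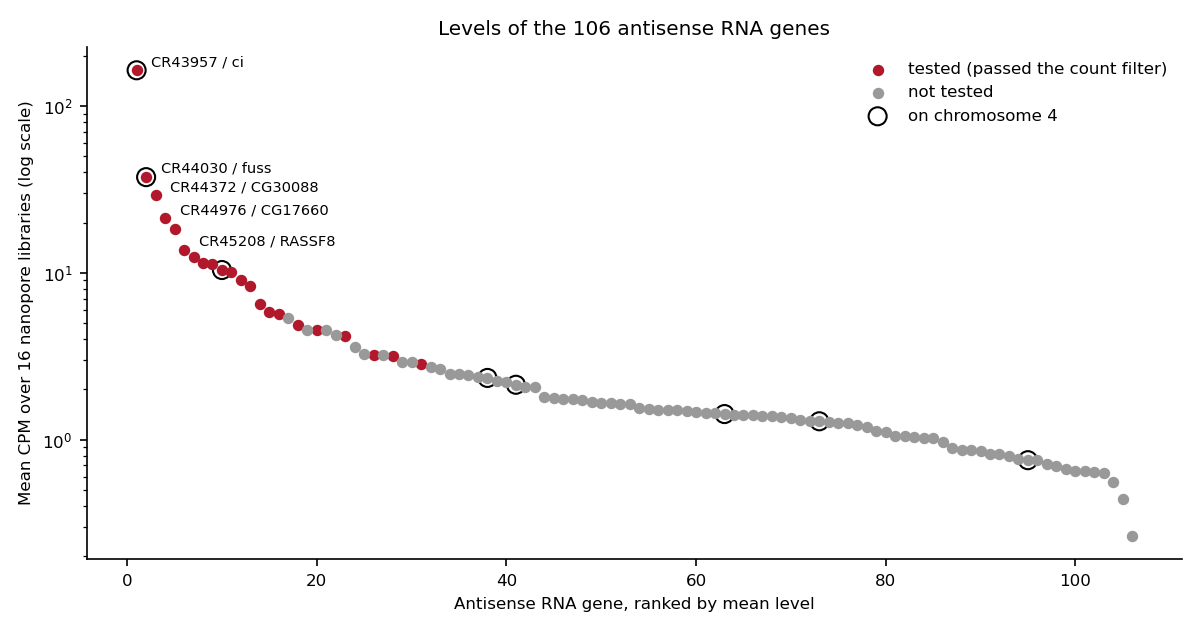
Mean CPM over the 16 nanopore libraries of the shared kit (log scale) for each of the 106 antisense RNA genes, ranked by that mean. Red points mark the 22 genes that passed the count filter and were tested, grey points the other 84, and rings the 8 genes on chromosome 4. CR43957 stands at 164 CPM and CR44030 at 37.4 CPM, and the median gene is at 1.59 CPM.

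Added together, the 106 genes came to 617 ± 39.7 CPM in blood of infested larvae at 120 h (SD, n = 3) and 637 ± 110 CPM in blood of normal larvae at 120 h (n = 2). At 96 h the sums were 480 ± 40.1 CPM in blood of infested larvae (n = 3) and 418 ± 45.8 CPM in blood of normal larvae (n = 2). Lymph glands had 478 ± 49.1 CPM in infested larvae at 96 h (n = 3), 666 CPM in the single library of normal larvae at 120 h, and 540 ± 52.3 CPM in normal larvae at 96 h (n = 3). The sums were thus higher in each 120 h group than in the 96 h group of the same tissue and state, and the infested and normal libraries overlapped at 120 h in blood. Without CR43957 the sums were 473, 418, 345 and 302 CPM in the blood groups in the same order, and 331, 410 and 334 CPM in the lymph gland groups. In this version the blood libraries did not overlap. Infested ones were at 458 to 492 CPM and normal ones at 393 to 444 CPM at 120 h. At 96 h infested ones were at 316 to 386 CPM and normal ones at 299 to 305 CPM. With CR43957 included they overlapped at both ages. Of all genes tested 49.9% were apart with infestation in blood at 120 h and 38.6% at 96 h, in either direction. The 106 genes were chosen by counts over these same libraries, so the sums are a description.

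The most abundant antisense RNA, CR43957, lies on the plus strand of chromosome 4 from 56497 to 63124 (BDGP6.54, as for all positions here). It is head to head with ci (47710 to 57041, minus strand), which encodes the transcription factor of the Hedgehog pathway. Their exons share only 53 bases, all in the untranslated region of ci. CR43957 had 112, 120 and 187 CPM in blood of infested larvae at 120 h, against 182 and 297 CPM in blood of normal larvae at 120 h. Blood of 96 h had 116, 120 and 152 CPM in infested larvae, against 89.7 and 165 CPM in normal larvae. In lymph glands it had 118, 138 and 158 CPM in infested larvae at 96 h, 256 CPM in the normal library of 120 h, and 193, 192 and 282 CPM in normal larvae at 96 h. All 3 infested lymph gland libraries were below all 3 normal ones, while the infested and normal libraries of blood overlapped at both ages. The log2 fold change with infestation was -0.77 ± 0.29 (SE) in blood at 120 h (edgeR adjusted p = 0.0766), -0.01 ± 0.31 in blood at 96 h (adjusted p = 1) and -0.69 ± 0.26 in lymph gland (adjusted p = 0.176). None of these passed the threshold of 0.05, but the call turned on the setting. Without the filter on low counts the falls passed in lymph gland (-0.69, adjusted p = 0.0267) and in blood at 120 h (-0.74, adjusted p = 0.0162). That in blood at 120 h also passed without replicate 3 of infested blood (-1.01, adjusted p = 0.0364).

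The facing gene ci had far fewer nanopore counts, 266 in all against the 4444 of CR43957. It had 19, 5.31 and 5.77 CPM in blood of infested larvae at 120 h, against 25.3 and 34.9 CPM in blood of normal larvae, so the groups did not overlap. That fall was called, with a log2 fold change of -1.59 ± 0.52 (edgeR adjusted p = 0.0440). The difference between the changes of CR43957 and ci was 0.83 ± 0.67 on the log2 scale and was not called (limma adjusted p = 0.498 over 829 pairs of genes on opposite strands).

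CR44030, the second in level, lies at 959675 to 962692 on the plus strand of chromosome 4. It is tail to tail with fuss (962341 to 978489, minus strand), a member of the Ski and Sno family of transcriptional co-regulators, and 39.7% of its exons overlap those of fuss. It had 21.1, 41.2 and 51.9 CPM in blood of infested larvae at 120 h, against 52.3 and 75.8 CPM in blood of normal larvae. At 96 h it had 30.5, 29.6 and 43.8 CPM in blood of infested larvae, against 42.9 and 48.8 CPM in blood of normal larvae. Lymph glands had 14.9, 15.9 and 27.7 CPM in infested larvae at 96 h, 58 CPM in the normal library of 120 h, and 31.9, 29.4 and 41.5 CPM in normal larvae at 96 h. The infested libraries were below the normal ones without overlap in blood at 120 h and in lymph gland. Of all genes tested 49.9% and 21.6% were apart there, in either direction. The log2 fold changes of CR44030, -0.71 ± 0.33 (edgeR adjusted p = 0.147) and -0.76 ± 0.33 (edgeR adjusted p = 0.249), were not called. With the replicate number as a block the fall in lymph gland was called (-0.80, edgeR adjusted p = 0.0499). So was a higher level of CR44030 in blood than in lymph gland of infested larvae (0.80, edgeR adjusted p = 0.0335). The facing fuss had at most 12.2 CPM in any library and 0 in 2 of the 3 infested lymph glands.

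The third antisense gene of chromosome 4 among the 10 highest was CR44029, at 879374 to 884752 inside unc-13, whose product primes synaptic vesicles for release. Its group means ran from 7.6 ± 3.26 CPM in infested lymph glands (SD, n = 3) to 14 ± 0.432 CPM in blood of normal larvae at 120 h (SD, n = 2), and it was called in none of the 9 comparisons. The other chromosome 4 genes were sparse: CR45124 opposite PlexB had 50 counts in all, CR45198 opposite CG33978 had 41, CR45126 opposite Taf3 had 40, CR44031 opposite Mpv17 had 38 and CR44027 opposite dati had 17. All 8 antisense genes there were on the plus strand and faced genes on the minus strand.

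The other antisense genes among the 10 highest were called in none of the 9 comparisons by edgeR, apart from CR44372, CR43257 and CR44429 described below. CR44976 lies inside CG17660 on 2L and had 37.3 ± 3.14 CPM in normal blood at 96 h (SD, n = 2), while its other group means were between 15.6 and 20.7 CPM. Its log2 fold change with infestation in blood at 96 h was -0.93 ± 0.36 (edgeR adjusted p = 0.179). CR42254 is head to head with BEAF-32, which encodes a protein of chromatin boundaries, and its group means were between 14.3 and 23.9 CPM. CR45208 is head to head with RASSF8, a gene of the Ras association family. It had 23.2 ± 6.63 CPM in infested blood at 120 h and 13.6 ± 5.25 CPM in infested blood at 96 h (SD, n = 3 each), and the log2 fold change was 0.73 ± 0.34 (edgeR adjusted p = 0.139). CR45264 is tail to tail with CG8860, and had 8.19 ± 4.09 CPM in infested blood at 120 h and 16.8 ± 2.09 CPM in infested blood at 96 h (SD, n = 3 each), and the log2 fold change was -1.01 ± 0.43 (edgeR adjusted p = 0.103).

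CR44372, the third in level, is the antisense gene that was called between the tissues in the main fit. It lies at 15691054 to 15693887 on the minus strand of 2R and contains CG30088 (15691113 to 15692216), with 32.7% of its exonic length over exons of that gene. It had 33.7, 28.6 and 33.4 CPM in blood of infested larvae at 120 h, against 20.6 and 24.3 CPM in blood of normal larvae. In blood of 96 h it had 26.2, 11.8 and 13.1 CPM in blood of infested larvae, against 5.85 and 14.5 CPM in blood of normal larvae. Lymph glands had 32.8, 42.4 and 46.9 CPM in infested larvae at 96 h, 49.2 CPM in the normal library of 120 h, and 36.7, 39.5 and 55.3 CPM in normal larvae at 96 h. Every lymph gland library of 96 h was above every blood library of that age, in infested and in normal larvae.

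**Figure D2:**
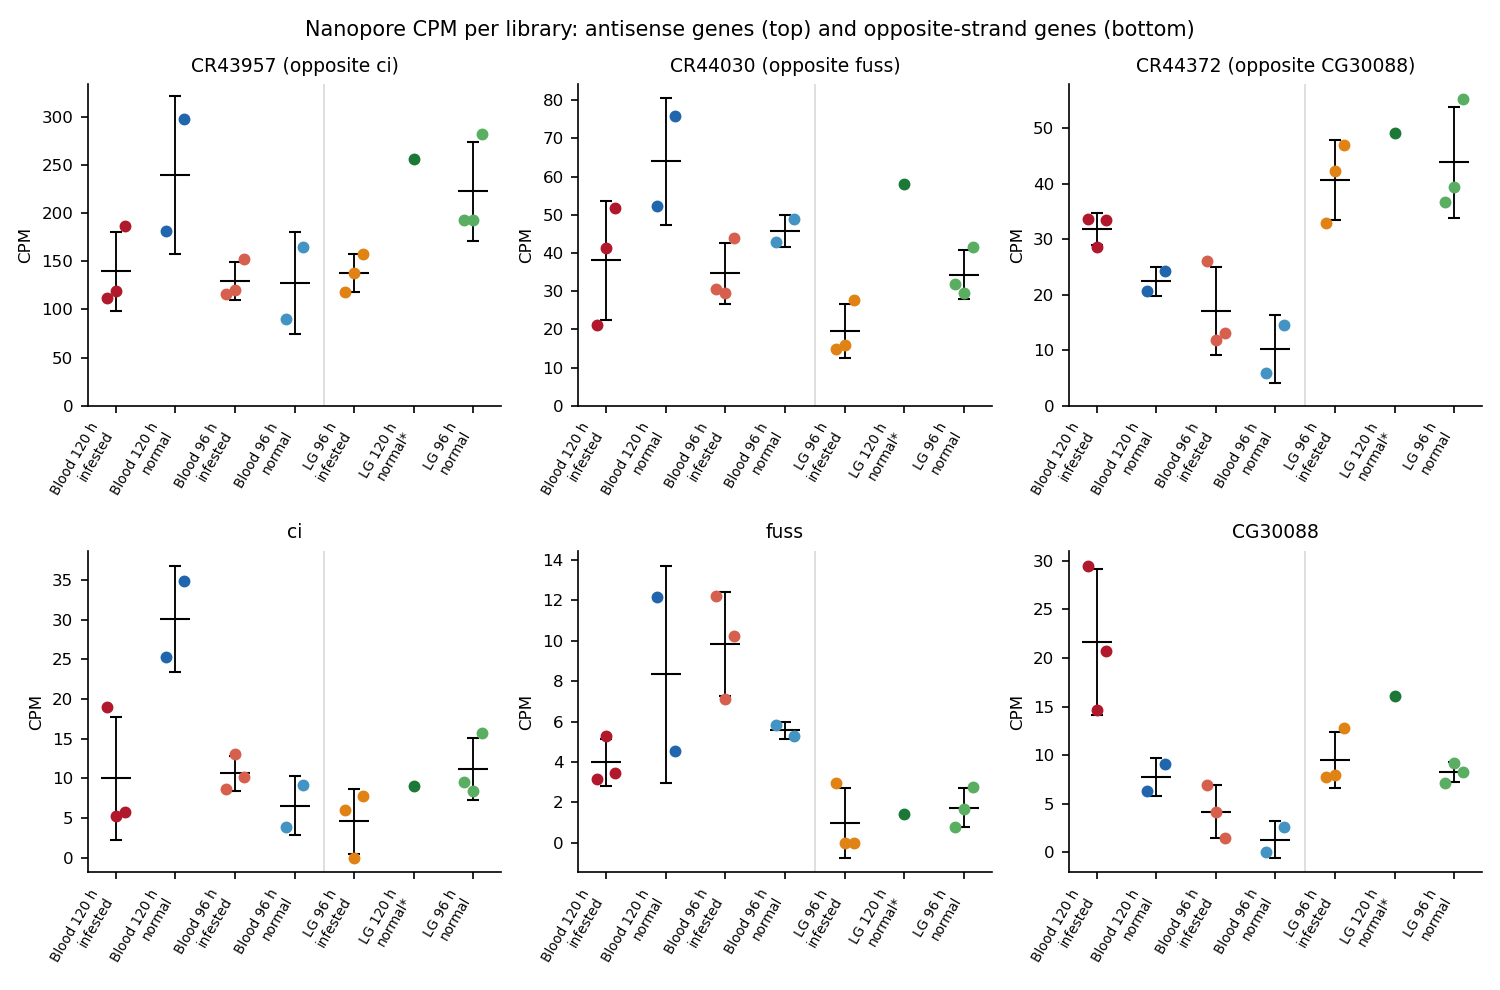
Nanopore CPM per library for the 3 antisense RNA genes of highest mean level (top row) and the genes they face (bottom row), by tissue, age and infestation; LG is lymph gland, points are libraries, bars the group mean ± SD, and the asterisk marks the single library of another kit. CR43957 and CR44030 are lower in infested than in normal lymph glands, CR44372 is higher in lymph gland than in blood at 96 h, and ci and fuss stay far below the antisense genes opposite them.

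Of the 22 antisense genes that passed the count filter and could be tested, 1 was called between the tissues of normal larvae at 96 h, against 7.5% of all 7076 genes tested. It was CR44372, lower in blood than in lymph gland, with a log2 fold change of -2.01 ± 0.42 (edgeR adjusted p = 0.00636). In infested larvae at 96 h CR44372 was again the 1 called, against 11% of all genes, with -1.24 ± 0.31 (edgeR adjusted p = 0.0167). A gene can pass the filter through the 1 group in which it is high, so these counts over the 22 describe the tests made and no more. In blood, fewer cells of a type and less RNA per cell cannot be told apart, here and in all comparisons that follow. The call in normal larvae was lost without replicate 2 of normal blood (-1.59, adjusted p = 0.0909), and that in infested larvae without replicate 3 of the infested lymph glands (0.0756) or replicate 2 (0.0989) or 3 (0.0608) of the infested blood.

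CG30088 had 0 and 2.64 CPM in blood of normal larvae at 96 h and 7.19, 9.24 and 8.3 CPM in lymph glands of normal larvae. Its difference had the sign of that of CR44372, -2.32 ± 0.83 on the log2 scale, but was not called (edgeR adjusted p = 0.112); in infested larvae it was -1.11 ± 0.50 (adjusted p = 0.201). Beside these differences, summed progenitor markers were 199 to 212 CPM in blood and 2798 to 3196 CPM in lymph glands of normal larvae, and 4 of the 5 tested were lower in blood. In infested larvae they were 256 to 327 CPM in blood and 979 to 1352 CPM in lymph glands, again with 4 of 5 lower in blood. Antp was at 0 in both blood groups of 96 h. Heart and pericardial markers were at 0 to 11.7 CPM in blood and 102 to 106 CPM in lymph glands of normal larvae, and at 4.38 to 9.48 CPM in blood and 45.5 to 71.5 CPM in lymph glands of infested larvae, with Him at 0 in both blood groups and the 1 tested lower in blood in both. Plasmatocyte and crystal cell markers were higher in blood, 8 of 8 and 6 of 6 in infested larvae and 6 of 8 and 3 of 6 in normal larvae. Their part in the level of CR44372 was not tested.

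Infestation was called for 2 of the 22 antisense genes in blood at 120 h, CR43257 and CR44972, both higher in infested larvae. Over all genes tested the share called was 19.4%, with 11.3% higher and 8.14% lower. The median log2 fold change was -0.42 over the 22 antisense genes and -0.03 over all genes tested, and 8 of the 22 had a positive one.

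CR43257 lies at 24793807 to 24795772 on the plus strand of 2R and contains ETH, which encodes the hormone that triggers the shedding of the old cuticle. It had 27.4, 25.2 and 32.3 CPM in blood of infested larvae at 120 h, against 2.64 and 6.06 CPM in blood of normal larvae. In blood of 96 h it had 6.1, 13 and 2.92 CPM in blood of infested larvae, against 9.75 and 11.9 CPM in blood of normal larvae. Lymph glands had 9.55, 5.29 and 9.24 CPM in infested larvae at 96 h, 5.62 CPM in the normal library of 120 h, and 7.98, 6.72 and 4.61 CPM in normal larvae at 96 h. The 3 libraries of infested blood at 120 h were above all others, and the rest spread between 2.64 and 13 CPM. The log2 fold change with infestation at 120 h was 2.89 ± 0.51 (edgeR adjusted p = 0.000846). Without replicate 2 of normal blood at 120 h it was 2.19 and no longer passed (adjusted p = 0.0647). The call of CR44972 was lost without the same library (adjusted p = 0.0729), although its fitted log2 fold change, 6.67, was close to the 6.77 with it, and no antisense gene was then called. Normal blood has 1 library in that fit, as in every fit that leaves out a normal blood library, and it is assumed to vary like the other groups. ETH itself had 11 nanopore counts in all 17 libraries and was not tested.

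The difference between the ages was tested itself. The log2 fold change of CR43257 with infestation in blood was larger at 120 h than at 96 h by 3.29 (adjusted p = 0.0341 in edgeR), and this was the only antisense gene of the 22 called there, against 1.94% of all genes. That call was lost on leaving out any 1 of 6 of the 10 libraries of the test, replicates 2 and 3 of infested blood at 120 h and of normal blood at both ages, with adjusted p up to 0.222. The 5 genes whose log2 CPM followed that of CR43257 most closely over the 16 libraries were ATP8A (Pearson r = 0.863), CG34330 (0.859), Zmynd10 (0.854), Golgin84 (0.850) and CG15296 (0.849), a description over libraries that share their groups.

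CR44972 lies at 13288302 to 13289021 on the minus strand of 2L, inside Uvrag (13286777 to 13289556), a gene of endosomal traffic and autophagy, and 95.1% of its exonic length faces coding exons of Uvrag. It had 9.49, 11.3 and 16.1 CPM in blood of infested larvae at 120 h, against no read in both libraries of normal blood. At 96 h it had 6.1, 1.78 and 1.46 CPM in blood of infested larvae, against none in normal blood. Lymph glands had 1.79, 2.65 and 0.711 CPM in infested larvae, 0.161 CPM, or 1 read, in the normal library of 120 h, and none in the 3 normal libraries of 96 h. Every infested library thus held CR44972, and of the 8 normal libraries only that of the 120 h lymph gland did. The 40 counts in infested blood at 120 h against 0 in normal blood make it at least 10.2-fold higher, with 3 counts over the normal group as the floor (edgeR adjusted p = 0.00327). CR44972 passed the count filter only through its level in infested blood at 120 h. The call thus describes a gene that was tested because it was high in that group.

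Uvrag moved the same way. It had 68.5, 53.1 and 66.9 CPM in blood of infested larvae at 120 h, against 11.1 and 9.1 CPM in blood of normal larvae. At 96 h it had 27, 24.9 and 17.5 CPM in blood of infested larvae, against 11.7 and 3.95 CPM in blood of normal larvae. The groups did not overlap at either age, and the log2 fold changes were 2.57 ± 0.35 at 120 h (edgeR adjusted p = 9.82e-05) and 1.69 ± 0.45 at 96 h (edgeR adjusted p = 0.0425). In lymph glands Uvrag had 14.9, 7.94 and 7.11 CPM in infested larvae, against 12, 13.4 and 10.1 CPM in normal larvae, with a log2 fold change of -0.15 ± 0.35 (adjusted p = 0.946). The changes of CR44972 and Uvrag at 120 h differed by 0.50 ± 0.44 on the log2 scale with a prior count of 2, which was not called (limma adjusted p = 0.548). This value depends on the prior count, since CR44972 had no read in normal blood. With a prior count of 0.5 the pair was called, with a difference of 2.20 in blood at 120 h (limma adjusted p = 0.0301) and of 2.45 in lymph gland (limma adjusted p = 0.0234), CR44972 changing more than Uvrag.

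Both genes of this pair were higher in the blood groups in which lamellocyte markers were higher. The summed level of the 8 lamellocyte markers was between 11230 and 14749 CPM in infested blood at 120 h and between 434 and 450 CPM in normal blood, and 8 of 8 were called higher. At 96 h it was between 4076 and 4381 CPM in infested blood and between 245 and 300 CPM in normal blood, where ItgaPS4 and atilla were at 0. In lymph glands it was between 1714 and 2480 CPM in infested larvae and between 251 and 304 CPM in normal larvae, with 6 of 8 called higher. The genes whose levels followed CR44972 most closely over the 16 libraries were shot (Pearson r = 0.978), which links actin filaments to microtubules, CG4511 (0.963), CG12112 (0.962), mys (0.961), an integrin beta subunit, and CG12655 (0.960). Of these shot and mys are in the lamellocyte list, and Uvrag itself stood at rank 164 with r = 0.875. The correlations are a description over libraries that share their groups, and CR44972 had no read in any normal library of the 16. Male germline markers, which blood should not hold, were also higher in infested blood at 120 h, at 260 to 460 CPM against 103 to 118 CPM in normal blood, with 5 of 7 tested called and aly at 0 in normal blood. Lower in infested blood at 120 h were crystal cell markers, at 863 to 1827 CPM against 5579 to 5851 CPM in normal blood (5 of 6 called), and plasmatocyte markers, at 2486 to 2858 CPM against 5710 to 5763 CPM (6 of 8 called). Midgut markers were at 25.4 to 53.7 CPM against 563 to 614 CPM (6 of 8 tested called lower), and fat body markers at 592 to 3485 CPM against 3479 to 4123 CPM (2 of 7 tested called lower). Jon25Bii was at 0 in both groups. The part of these marker lists in the changes of CR43257 and CR44972, and in those of ci and CR45397 in the same comparison, was not tested.

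**Figure D3:**
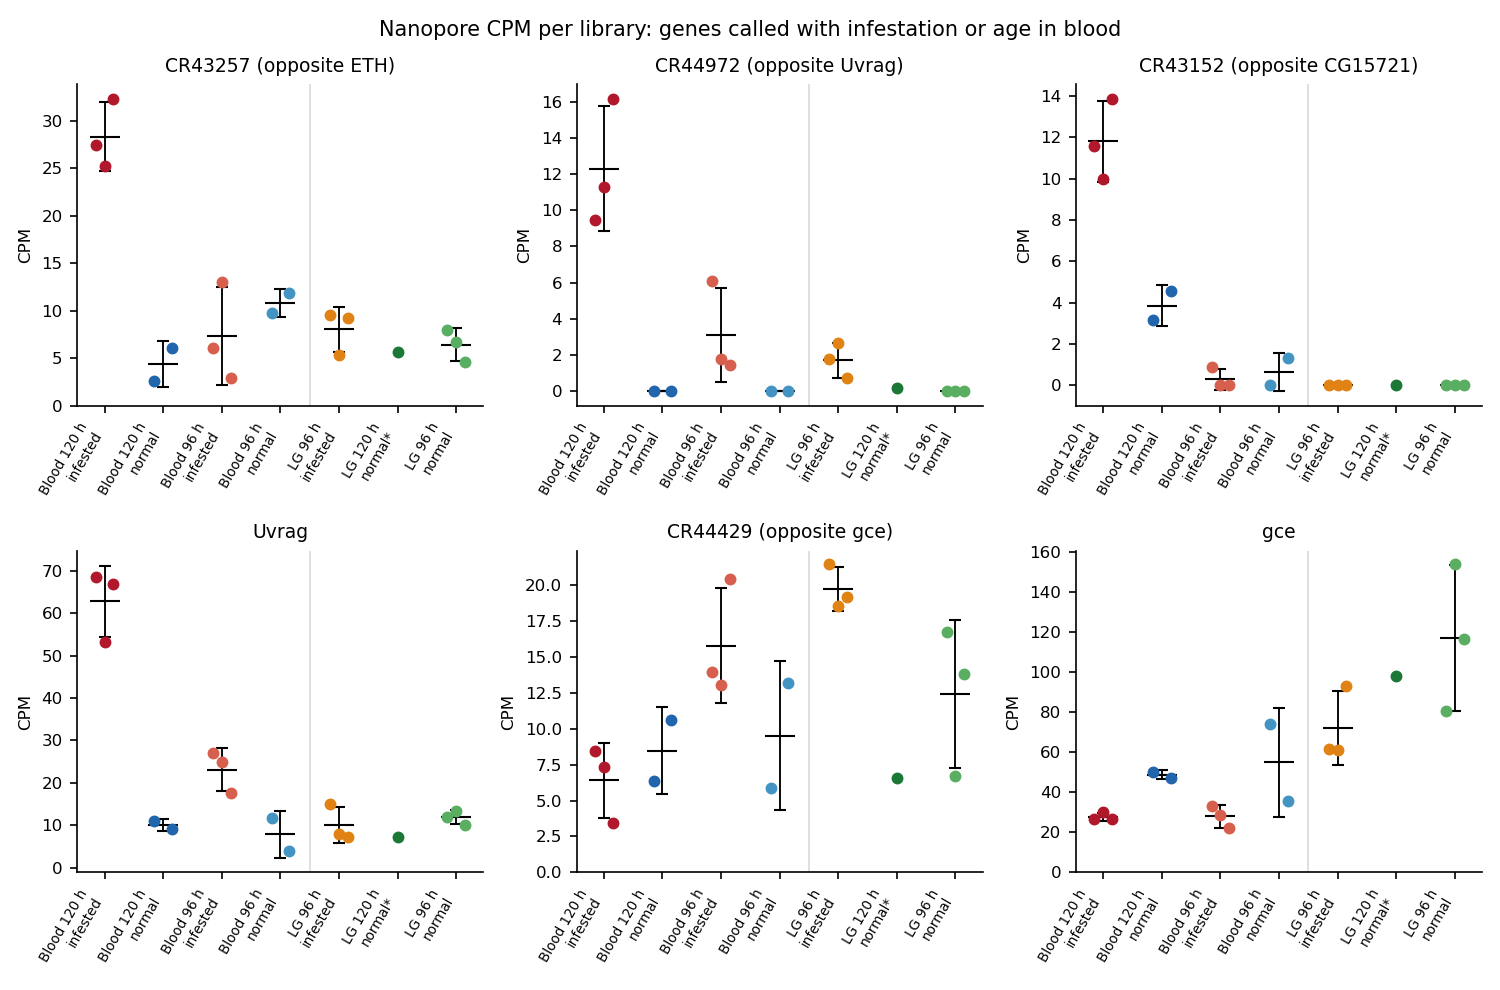
Nanopore CPM per library for 4 antisense RNA genes called with infestation or age in blood, CR43257, CR44972, CR43152 and CR44429, and for the facing genes Uvrag and gce; LG is lymph gland, points are libraries, bars the group mean ± SD, and the asterisk marks the single library of another kit. CR43257, CR44972, CR43152 and Uvrag are highest in the 3 libraries of infested blood at 120 h, whereas CR44429 is lower there than in infested blood at 96 h while gce lies between 21.9 and 33.1 CPM at both ages.

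In the main fit no antisense gene was called with infestation in blood at 96 h, where 4.97% of all genes tested were. None was called there in lymph gland at 96 h either, where 5.13% were. In blood at 96 h, 2 of the 22 had an unadjusted p under 0.05, the lowest adjusted p was 0.179 in edgeR, and DESeq2 and limma voom called 0. In lymph gland 4 of the 22 had an unadjusted p under 0.05 and the lowest adjusted p in edgeR was 0.0694, again with 0 called by DESeq2 and limma voom. That lowest p belonged to CR45136, opposite CG30015, which had 43, 2.65 and 0.711 CPM in infested lymph glands, against 0, 0 and 0.922 CPM in normal ones. The high value was 72 counts in replicate 1, and no other of the 17 libraries had more than 12. Other settings did call antisense genes in lymph gland. With the replicate number as a block these were CR43957 (edgeR adjusted p = 0.0038) and CR44030 (edgeR adjusted p = 0.0499). Without the count filter they were CR45136 (edgeR adjusted p = 3.86e-08), CR43957 and CR46055. CR45136 was also called without replicate 3 of the infested lymph glands (edgeR adjusted p = 0.0162). The difference of the infestation effect between the tissues was called for none of the 22, against 0.283% of all genes. Of the 22, 1 had an unadjusted p under 0.05, and DESeq2 and limma voom called 0. Without the count filter CR46055 was called (-6.69, edgeR adjusted p = 0.00902).

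With age, 5 of the 22 antisense genes were called in infested blood, 4 higher and 1 lower at 120 h than at 96 h. Over all genes the share called was 24.4%, with 15% higher and 9.37% lower. In normal blood 1 of the 22 was called, against 4.27% of all genes. The labels' replicate numbers ran together in infested blood, and with the replicate number as a block 4 antisense genes were called there, without CR44179 (adjusted p = 0.0501) and CR44972 (adjusted p = 0.0634) and with CR44372 (0.88 on the log2 scale, adjusted p = 0.0363).

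CR43152 had the lowest adjusted p of these. It lies at 12973825 to 12974615 on the minus strand of X, tail to tail with CG15721, which had no nanopore count. It had 11.6, 9.96 and 13.8 CPM in infested blood at 120 h, against 0.872, 0 and 0 CPM in infested blood at 96 h. Normal blood had 3.17 and 4.55 CPM at 120 h and 0 and 1.32 CPM at 96 h, and none of the 7 lymph gland libraries had a read. The 38 counts at 120 h against 1 at 96 h in infested blood gave a ratio of 40.3, with a 95% counting interval of 6.80 to 1632 (edgeR adjusted p = 0.00196). CR43152 passed the count filter only through infested blood at 120 h, so it was tested because it was high there. The call held with each of the 6 infested blood libraries left out in turn, with adjusted p up to 0.0139, and was lost with blood replicates 2 and 3 summed (adjusted p = 0.0528). Infested blood at 120 h was also above normal blood of that age without overlap, but the log2 fold change of 1.65 ± 0.69 was not called (edgeR adjusted p = 0.125).

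CR43257 and CR44972, called with infestation, were also higher at 120 h than at 96 h in infested blood. The log2 difference was 1.76 ± 0.38 for CR43257 (edgeR adjusted p = 0.00328) and 1.91 ± 0.62 for CR44972 (edgeR adjusted p = 0.0448), while Uvrag was higher by 1.40 ± 0.27 (adjusted p = 0.00184 in edgeR). These comparisons share the infested libraries of 120 h with the infestation comparison at that age. The call of CR43257 held on leaving out each of the 6 libraries, and that of CR44972 was lost for 4 of them, replicates 2 and 3 at each age, with adjusted p up to 0.176.

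CR44179, which contains the gene CG5112 on 3R (25491285 to 25493262, minus strand), had 6.32, 11.3 and 10.4 CPM in infested blood at 120 h, against 2.62, 2.96 and 0 CPM in infested blood at 96 h. The groups did not overlap and the log2 fold change was 2.07 ± 0.71 (edgeR adjusted p = 0.0467). CR44179 passed the count filter through the 120 h group, in which it was called higher. Leaving out any 1 of the 3 libraries of 96 h ended the call, with adjusted p of 0.0789 to 0.107, and in 2 of the 6 settings the gene no longer passed the filter. CG5112 had 3 nanopore counts in all.

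CR44429 was the antisense gene that fell. It lies at 15297312 to 15298217 on the minus strand of X, head to head with gce, which encodes a receptor of juvenile hormone, and 20.8% of its exonic length faces the untranslated region of gce. It had 8.43, 7.31 and 3.46 CPM in infested blood at 120 h, against 13.9, 13 and 20.4 CPM in infested blood at 96 h, with no overlap. The log2 fold change was -1.21 ± 0.41 (edgeR adjusted p = 0.0445), and the call was lost on leaving out any of 5 of the 6 libraries, all but replicate 1 at 120 h, with adjusted p up to 0.141. Its facing gene gce had 26.3, 29.9 and 26.5 CPM at 120 h, against 33.1, 28.4 and 21.9 CPM at 96 h in infested blood, and a log2 fold change of -0.03 ± 0.31 (adjusted p = 0.975). The changes of the 2 genes differed by -1.14 ± 0.57, which was not called (limma adjusted p = 0.253).

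In normal blood CR44849 was the gene called with age. It lies at 14019395 to 14020325 on the plus strand of 2L, head to head with NimC3, a member of the Nimrod family of blood cell surface proteins, and 87.4% of its exonic length faces exons of NimC3. It had 13.7 and 16.7 CPM in normal blood at 120 h, against 1.95 and 0 CPM in normal blood at 96 h. Infested blood had 10.5, 2.66 and 8.07 CPM at 120 h and 2.62, 2.96 and 1.46 CPM at 96 h, and lymph glands had 9 CPM in the 120 h library and at most 5.88 CPM in any library of 96 h. The 37 counts at 120 h against 1 count at 96 h in normal blood gave a ratio of 18.4, with a 95% counting interval of 3.11 to 747 (edgeR adjusted p = 0.0396). CR44849 passed the count filter largely through normal blood at 120 h, the group in which it was called higher. The call was lost on leaving out any 1 of the 4 libraries, with adjusted p of 0.0785 to 0.287. NimC3 had 31.2 and 25.8 CPM at 120 h, against 3.9 and 10.5 CPM at 96 h in normal blood, a log2 fold change of 1.89 ± 0.69 that was not called (edgeR adjusted p = 0.154).

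Other markers moved with age in blood. Midgut markers were at 25.4 to 53.7 CPM in infested blood at 120 h and at 2686 to 3743 CPM in infested blood at 96 h, with 8 of 8 tested lower and betaTry at 0 in both. Male germline markers were at 260 to 460 CPM at 120 h and at 5.92 to 25.3 CPM at 96 h, with 6 of 7 tested higher and ProtA and aly at 0 at 96 h. Lamellocyte markers were at 11230 to 14749 CPM at 120 h and at 4076 to 4381 CPM at 96 h in infested blood, with 7 of 8 higher. Also in infested blood, muscle markers were at 460 to 1091 CPM at 120 h and at 916 to 2379 CPM at 96 h (8 of 9 lower and 1 higher), crystal cell markers at 863 to 1827 CPM and at 2037 to 4603 CPM (4 of 6 lower), and plasmatocyte markers at 2486 to 2858 CPM and at 3817 to 5336 CPM (5 of 8 lower). In normal blood muscle markers were at 477 to 509 CPM at 120 h and at 2901 to 3450 CPM at 96 h, with 8 of 9 lower. Fat body markers in normal blood were at 3479 to 4123 CPM at 120 h and at 450 to 1306 CPM at 96 h, with 4 of 7 tested higher and Fbp1 and Lsp1alpha at 0 at 96 h. Their part in the changes of the antisense genes was not tested.

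Whether an antisense gene and the gene it faces changed by different amounts was tested on the difference of their log2 CPM. Of 829 pairs of genes on opposite strands with overlapping exons, 19 held a tested antisense gene. In at least 1 of the 9 comparisons 2 of these 19 pairs, or 10.5%, were called, against 18.1% of all 829 pairs. The other 17 were not called with a prior count of 2; with a prior count of 0.5 the pair of CR44972 and Uvrag was called, as given above, and the 2 pairs that follow were not.

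The first was CR45397 (15143801 to 15144170, plus strand of 3L), head to head with CG32147. CR45397 had 9.49, 7.97 and 9.22 CPM in infested blood at 120 h, against 17.4 and 25.8 CPM in normal blood, so that all infested libraries were lower. CG32147 went the other way, with 240, 234 and 243 CPM in infested blood, against 158 and 147 CPM in normal blood. The log2 fold change of CR45397 alone was -1.23 ± 0.44 (edgeR adjusted p = 0.0669) and that of CG32147 was 0.64 ± 0.14 (edgeR adjusted p = 0.00497). The difference of the 2 changes was -1.75 ± 0.45 (limma adjusted p = 0.0255), in a comparison in which 9.41% of all pairs were called. The second was CR44372 with CG30088 in infested blood, 120 h against 96 h. There the log2 fold change was 0.89 ± 0.31 for CR44372 (edgeR adjusted p = 0.0505) and 2.22 ± 0.46 for CG30088 (edgeR adjusted p = 0.00243). CG30088 had 29.5, 14.6 and 20.8 CPM at 120 h, against 6.97, 4.15 and 1.46 CPM at 96 h. The difference between the pair was -1.12 ± 0.31 (limma adjusted p = 0.0338), where 9.41% of all pairs were called. The call of CR45397 with CG32147 was lost on leaving out any 1 of the libraries of its comparison. That of CR44372 with CG30088 was lost without any 1 of the infested libraries of 120 h. It was also lost without replicate 1 or 3 of infested blood at 96 h, or without replicate 3 of normal blood at 120 h.

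**Figure D4:**
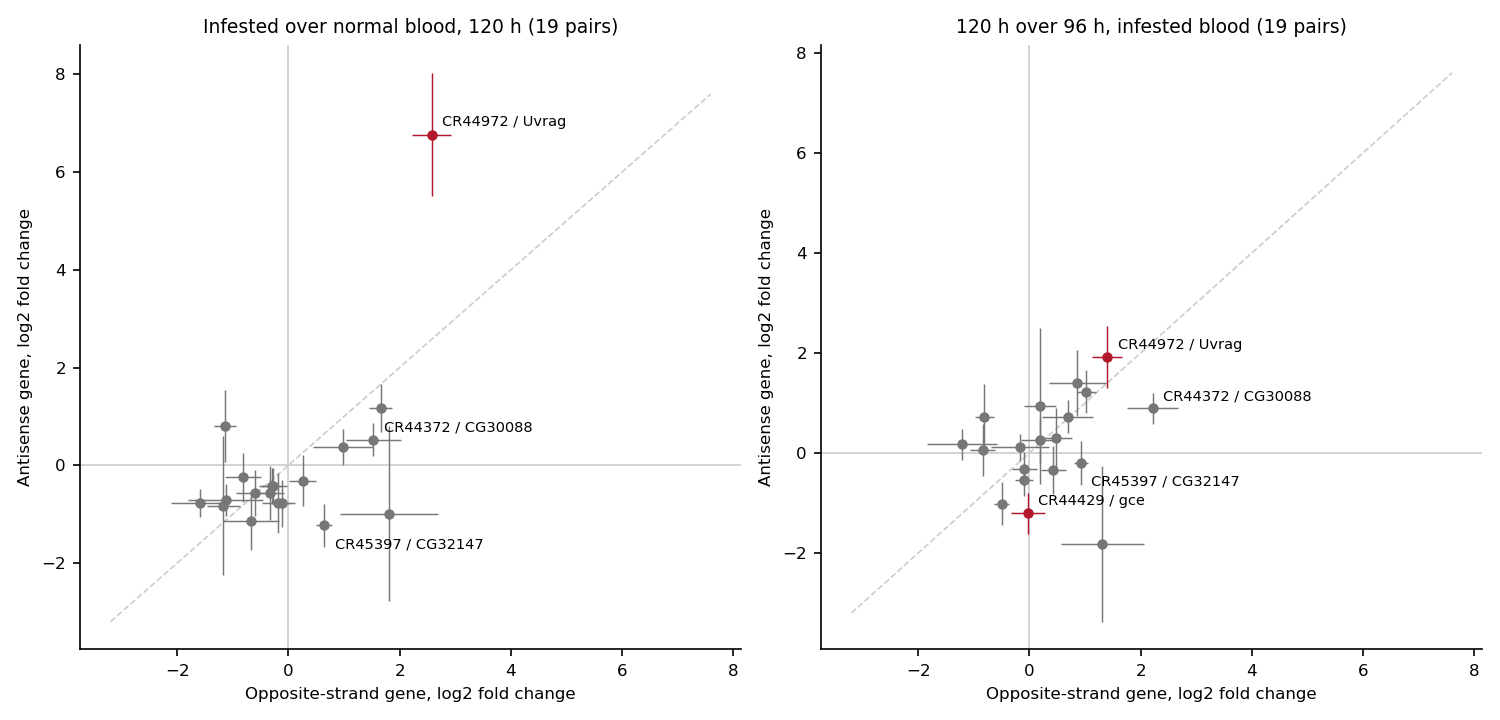
Log2 fold change of the antisense gene (vertical) against that of the gene it faces (horizontal) for the 19 tested pairs, infested over normal blood at 120 h on the left and 120 h over 96 h in infested blood on the right; bars are standard errors from edgeR, red marks antisense genes with adjusted p under 0.05, and the dashed line is equal change. CR44972 and Uvrag are both to the upper right on each side, and CR45397 lies below 0 with CG32147 above 0 on the left.

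The facing genes were followed as a list of their own, of which 88 of 106 could be tested. With infestation, 14 of the 88 were higher and 7 lower in blood at 120 h, or 23.9% against 19.4% of all genes tested. In blood at 96 h 5 were higher and 1 lower (6.82% against 4.97%), and in lymph gland 4 were higher and 2 lower (6.82% against 5.13%). With age 15 were higher and 10 lower in infested blood (28.4% against 24.4%) and 2 higher and 1 lower in normal blood (3.41% against 4.27%). Blood against lymph gland gave 12 higher and 6 lower in infested larvae (20.5% against 11%) and 5 higher and 4 lower in normal larvae (10.2% against 7.5%). Among them fuss was higher in blood than in lymph gland of infested larvae, with 12.2, 7.11 and 10.2 CPM in blood, against 2.99, 0 and 0 CPM in lymph glands (log2 fold change 2.71 ± 0.74, edgeR adjusted p = 0.0267). The receptor gene gce was lower in blood, by a log2 fold change of -1.37 ± 0.29 in infested larvae (edgeR adjusted p = 0.00530) and of -1.13 ± 0.32 in normal larvae (edgeR adjusted p = 0.0431). CR44429, opposite gce, was called in neither tissue comparison. The medians of the facing genes were -0.11 with infestation in blood at 120 h and 0.27 with age in infested blood on the log2 scale, beside -0.03 and 0.07 over all genes tested.

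The other long non-coding RNA genes with at least 15 counts numbered 210, and 86 of them were tested. Of these 14 were higher and 6 lower with infestation in blood at 120 h, or 23.3% against 19.4% of all genes tested. With age in infested blood 33 were higher and 1 lower, or 39.5% against 24.4% of all genes, of which 15% were higher and 9.37% lower. The median change with age in infested blood was 0.57 for them, 0.28 for the 22 antisense genes and 0.07 for all genes tested on the log2 scale.

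Few genes of the proteins that handle double-stranded RNA were called. Of 15 genes of the small RNA machinery 12 were tested, and none was called with infestation in lymph gland or in blood at 96 h or with age in normal blood, comparisons in which 5.13%, 4.97% and 4.27% of all genes were. With infestation in blood at 120 h 1 of the 12 was called (8.33% against 19.4% of all genes) and with age in infested blood 2 (16.7% against 24.4%). AGO2, the effector that carries small interfering RNAs, was higher at 120 h than at 96 h in infested blood (log2 fold change 0.63 ± 0.20, edgeR adjusted p = 0.0311). The gene blanks, which encodes a protein that binds double-stranded RNA and is known from the testis, was higher with infestation in blood at 120 h by 1.66 ± 0.42 (edgeR adjusted p = 0.0153) and with age in infested blood by 3.44 ± 0.44 (edgeR adjusted p = 0.000150). It was also higher in blood than in lymph gland, by 4.86 ± 1.14 in infested larvae (edgeR adjusted p = 0.0135) and by 3.20 ± 0.75 in normal larvae (edgeR adjusted p = 0.0184), and was the 1 of the 12 called there. In the comparisons of infestation in blood at 120 h and age in infested blood male germline markers were also higher, and their part in the change of blanks was not tested. Of 15 genes of RNA decay and termination 13 were tested, and 2 were called in each of the same 2 blood comparisons (15.4% against 19.4% and 24.4% of all genes). In blood at 120 h twin, the deadenylase subunit of the CCR4-NOT complex, was higher with infestation (log2 fold change 0.79, edgeR adjusted p = 0.0492), and the exosome subunit Rrp4 was lower (-0.60, edgeR adjusted p = 0.0332). With age in infested blood twin was higher (0.96, edgeR adjusted p = 0.00772) and the exosome subunit Rrp40 lower (-0.81, edgeR adjusted p = 0.00509). Not1, the scaffold of CCR4-NOT, was lower in blood than in lymph gland of infested larvae (-0.93, edgeR adjusted p = 0.0419), the 1 of 13 called there, and none was called in normal larvae.

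The short reads gave a second view of which strand was more abundant, with 1 library per condition and therefore no test. All 106 antisense genes had Illumina expected counts, and 21 averaged at least 5 TPM, a share of transcripts that takes gene length into account. Over all libraries the antisense gene made up a median of 8.61% of the counts of both genes of a pair in nanopore reads and 2.39% in Illumina reads. These 2 shares are unlike measures, since expected counts are not scaled for gene length. The exons of CR43957, for one, span 1222 bases and those of ci 5651. The sets of libraries differ too, as no Illumina library came from normal lymph glands. The antisense gene was above the gene it faces in 18 pairs by nanopore counts, in 17 by mean TPM, and in 15 by both. CR43957 was one of the 15, although it held 94.4% of the nanopore counts and 20.7% of the Illumina counts of its pair. It had 38.2 TPM in infested and 134.5 TPM in normal blood at 120 h, 38.4 TPM in infested and 41.8 TPM in normal blood at 96 h, and 38.9 TPM in infested lymph glands. In the same order ci had 16.8, 31.6, 20.2, 24.0 and 7.35 TPM, less than CR43957 in each library. CR44030 averaged 11.8 TPM against 1.20 TPM for fuss, and CR43257 7.47 TPM against 3.44 TPM for ETH.

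**Figure D5:**
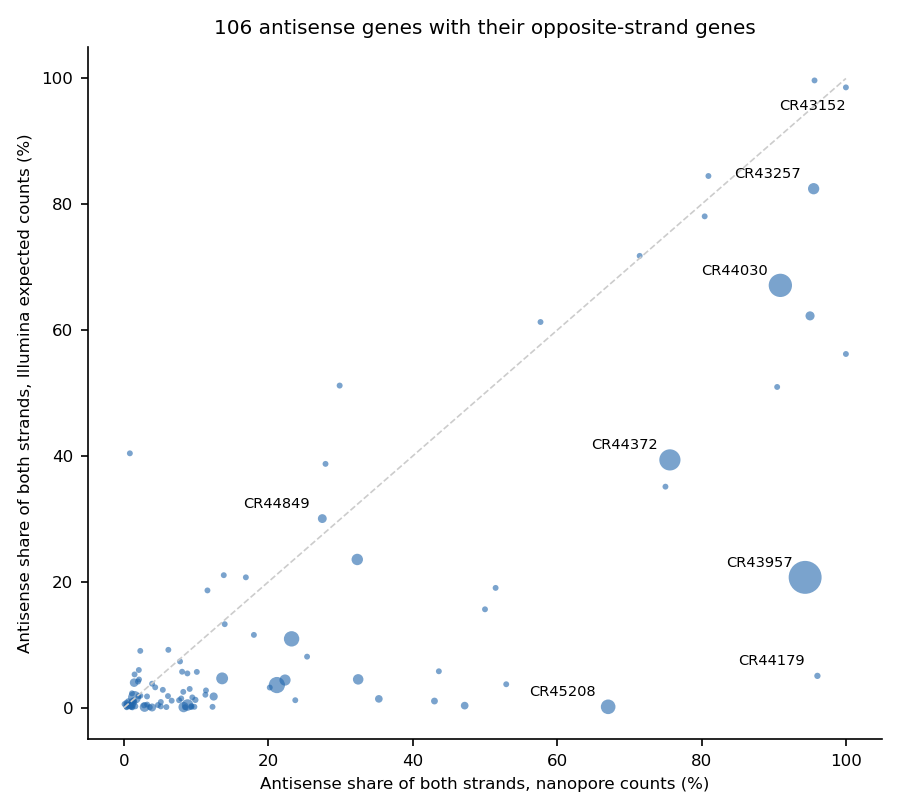
Share of the counts of both genes of a pair that belonged to the antisense gene, in nanopore counts (horizontal) and in Illumina expected counts (vertical), for the 106 pairs; the area of a point grows with the nanopore count of the antisense gene, and the dashed line is an equal share. CR43957 lies at 94.4% and 20.7%, and most pairs lie near the lower left corner, with medians of 8.61% and 2.39%. Expected counts are not scaled for gene length, and no Illumina library came from normal lymph glands, so the axes are unlike measures.

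Of the 7 antisense genes called in the nanopore data, CR43257, CR44972, CR43152 and CR44849 are given here by single Illumina library. The others, CR44372, CR44429 and CR44179, had 502, 332 and 614 expected counts over all Illumina libraries and are not followed by condition. CR43257 had 234 expected counts in infested and 66.3 in normal blood at 120 h, 111 in infested and 89.2 in normal blood at 96 h, and 116 in infested lymph glands. CR44972 had 62.0 in infested and 4.9 in normal blood at 120 h, 13.8 in infested and 2.2 in normal blood at 96 h, and 9.2 in infested lymph glands. Both thus had their highest value in infested blood at 120 h, as in the nanopore libraries. CR43152 had 47 expected counts in infested and 590 in normal blood at 120 h, 1 in infested and 7 in normal blood at 96 h, and 0 in infested lymph glands. The order of infested and normal blood at 120 h was therefore the reverse of that in the nanopore libraries, while both platforms had far more at 120 h than at 96 h. CR44849 had 119 in infested and 1243 in normal blood at 120 h, 109 in infested and 117 in normal blood at 96 h, and 131 in infested lymph glands, again highest in normal blood at 120 h.

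Some pairs differed widely between the platforms. CR45208, head to head with RASSF8, had 395 nanopore counts in all and 6.27 Illumina expected counts, whereas RASSF8 had 194 and 4793. CG5112, contained in CR44179, had 3 nanopore counts and 11556 Illumina expected counts. Whether the nanopore counting used the strand of the read is not given in the sources used here. In 7 pairs, 6 with an unspliced antisense gene, the transcript tables assigned more counts to the antisense gene than the gene tables did. For CR44849 these were 288 and 145 counts, and for CR44179 they were 955 and 73. Both had a library in which the 2 transcripts of the pair were given equal values that were not whole, 5.5 each for CR44849 and NimC3 and 26.5 each for CR44179 and CG5112. For these pairs the reads of the 2 strands cannot be told apart with certainty, and the values of CR44849 and CR44179 above are uncertain to that extent. Differences also went the other way, and 16 antisense genes had no transcript counts at all. CR44429 had 261 gene counts and 0 transcript counts, and CR45136 had 109 and 0. CR45397 had 245 and 1.5, CR43257 had 235 and 38, and CR44972 had 57 and 23. The cause of these lower counts was not tested, and the values of these 5 genes above are uncertain as well. CR43152 differed little, with 49 and 46. Among the 14 antisense genes that had reads on transcripts of the authors' own assembly, CR43957 had 6 such transcripts, CR44372 had 4, and CR44030 and CR44029 had 3 each.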

How the data were processed

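The nanopore gene tables that the authors deposited hold whole-number read counts, and their transcript tables hold estimated counts, as the values show. The deposited Illumina gene tables hold expected counts and TPM, per the file headers. The submitters' processing notes name minimap2 2.17-r941, RSEM 1.3.1, StringTie 2.1.3, STAR 2.5.3a and FastQC 0.11.8 without saying what each did. Not given in the sources used here are the genome build, the tool behind the nanopore counts and its use of strand. Ambiguous reads (0.498 to 1.29% of gene counts) and reads in no gene (0.379 to 0.777%) were kept out. Of 17714 FlyBase identifiers 17663 found a symbol in Ensembl's BDGP6.54 gene set, 76 of these by way of a transcript.

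The deposited gene counts went unchanged into edgeR 4.0.16 (R 4.3.3) with TMM scaling and its quasi-likelihood F test, in 1 fit of 16 libraries and 6 groups, with 10 residual degrees of freedom. The 7076 genes that passed filterByExpr (minimum count 10, minimum total 15), of 13721 with a count in these libraries, were tested in 9 comparisons. P-values were adjusted by the Benjamini-Hochberg method over all 7076 genes, with a threshold of 0.05. Named genes were those called in any comparison, the 10 of highest mean CPM and the genes they face; CR45136, CR45397 and the genes beside them were named after their values were seen. CPM are TMM-scaled, except in the 120 h lymph gland library and in the sums over all 106 genes. Those are CPM of all gene counts. Pair differences were tested with limma 3.58.1 on log2 CPM (prior count 2). Floors of 3 counts and intervals of 95% cover counting error only. The script was tested on simulated data. Same-numbered libraries of infested blood deviated together between the ages (correlations of deviations 0.131 to 0.288 in 3 pairs), so the replicate block is given beside that comparison. Alternatives were RLE scaling, DESeq2 1.42.0, limma voom, no count filter, the block, summed replicates, and leaving out each library. The genes, lists and tests were chosen with earlier results of these data known.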

Additional observations from a re-analysis of the deposited data

Results flagged for a closer look

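The infestation effect on CR43257 in blood differed between the ages, by the test of the difference itself. The log2 fold change of infested over normal blood was larger at 120 h than at 96 h by 3.29 (edgeR adjusted p = 0.0341). The call was lost on leaving out any 1 of 6 of the 10 libraries of the test, and with blood replicates 2 and 3 summed. At 120 h CR43257 averaged 28.3 ± 3.61 CPM in infested blood (SD, n = 3) and 4.35 ± 2.42 CPM in normal blood (SD, n = 2). At 96 h it averaged 7.35 ± 5.17 CPM in infested blood (SD, n = 3) and 10.8 ± 1.49 CPM in normal blood (SD, n = 2).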

How the results depend on the processing

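The counts of called antisense genes moved with the processing more than the directions did. Shares of all genes called are given above for the main fit, and not for the settings below. The counts below therefore describe the settings and are not a result about antisense genes. Over 13 single-gene results and 152 settings, 108 kept their direction and side of the threshold, 44 kept the direction only and 0 changed direction. With no count filter all 106 genes were tested and the calls were 3 with infestation in lymph gland, 3 with age in normal blood, 14 with age in infested blood, 3 between tissues in normal and 3 in infested larvae, with 1 and 2 for the infestation effect compared between tissues and between ages. DESeq2 called 0 with age in normal blood and 2 in infested blood, and limma voom called 5 with infestation in blood at 120 h. The replicate block gave 2 calls each for infestation in lymph gland, age in normal blood, both tissue comparisons and the difference between ages. Correlations of deviations of same-numbered libraries were 0.0289 to 0.133 between normal and infested lymph glands. They were 0.0268 to 0.226 between normal lymph glands and infested blood at 120 h. Between normal and infested blood they were -0.0198 to -0.00778 at 96 h and 0.0295 to 0.0639 at 120 h. What a number marks is not given, so the block stands beside the main fit. With the block CR43957 was called lower with infestation in lymph gland (-0.70, edgeR adjusted p = 0.0038) and in blood at 120 h (-0.67, edgeR adjusted p = 0.00384). With blood replicates 2 and 3 summed, the calls were 0 with age in normal blood, 1 in infested blood, 0 between tissues in normal and 0 in infested larvae, and 0 for the difference between ages. The number of called pairs was 1 with a prior count of 0.5 (CR44972 with Uvrag) and 9 with a mean of 5 CPM required of the facing gene in place of the count filter. Leaving out each library in turn gave 0 to 1 calls with infestation in lymph gland, 0 to 3 in blood at 120 h, 0 to 0 with age in normal blood, 2 to 7 in infested blood, 0 to 1 between tissues in normal and in infested larvae, 0 to 1 for the difference between ages, and 0 to 4 called pairs. The causes of these differences were not tested, and the settings do not all hold the same number of genes or libraries. Depth limits what can be said of the 84 untested genes: where a library had no read, 3 counts stood for up to 8.41 CPM.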

Other observations

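CR46055, opposite the cell cycle regulator E2f1, was present in some libraries and absent from others of the same group. It was at 0 in 9 of 17 libraries, with 0, 12.6 and 0 CPM in infested and 14.8 and 0 CPM in normal blood at 120 h. Normal blood at 96 h had 23.4 and 0 CPM, and the single lymph gland library of 120 h had 19.4 CPM. CR44370, opposite Fs, had 22 nanopore counts, all in blood of 120 h, with 3, 6 and 4 in infested and 5 and 4 in normal larvae. Its Illumina expected counts, not scaled for depth, were 651 in infested and 6125 in normal blood at 120 h. They were 14.8 in infested and 62.9 in normal blood at 96 h, and 0 in infested lymph glands.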
